A study of Caenorhabditis elegans with 8 samples.

Results

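The lysozyme genes lys-1, lys-2, lys-4, lys-5, lys-7, lys-8, ilys-2, ilys-3 and ilys-5 of C. elegans were followed across wild-type animals and animals lacking function of the nuclear receptor gene hizr-1, each with and without cadmium chloride. They were taken by symbol, 9 genes out of 46726 in each count table. The wild type was strain N2, and the mutant was an N2 derivative carrying the hizr-1 loss-of-function allele am286. Cultures of both strains, holding animals of all stages, were raised side by side for 4 days. For the last 16 to 18 h they were kept at 20 °C on NAMM (a noble agar medium), fed concentrated E. coli OP50 and given either 0 or 100 mM cadmium chloride, the unit being that of the labels, which could not be checked. Each of the 4 groups (wild type without cadmium, wild type with cadmium, hizr-1 mutant without cadmium, hizr-1 mutant with cadmium) had 2 libraries of whole-animal RNA, each made from 10 pooled plates. The mutant was a single allele, no rescued strain was analysed here, and all 4 groups ate the same bacteria without any pathogen.

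Lysozymes cut the sugar backbone of peptidoglycan, the mesh that holds bacterial cell walls together. C. elegans has both lysozymes like those of amoebae and other protists, the lys genes, and invertebrate-type lysozymes, the ilys genes. Because the worm eats bacteria, its lysozymes serve digestion in the gut and pharynx as well as defence against infection, and several are known targets of immune signalling, among them the p38 kinase PMK-1, the insulin-regulated factor DAF-16 and the TGF-beta ligand DBL-1. HIZR-1 is a nuclear receptor that switches on genes in the intestine when zinc is high, and the series asks how cadmium acts through it.

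Summed counts ran from 17681352 to 29586507 per library, and 3 counts, the most that a gene with no count allows, corresponded to 0.1014 to 0.1697 CPM. Levels below are CPM, the count scaled to a fixed library total with TMM-scaled library sizes, or RPKM, the same value per kilobase of exon, where genes are set beside each other. Counts of hizr-1 were 52 to 101 in the wild-type libraries and 7 to 20 in the mutant ones. The summed level of 14 intestinal marker genes was 5367 to 7020 CPM over the 8 libraries, with none at 0 in any library. That of 12 pharynx markers was 511.9 to 969.4 CPM, again with none at 0. Sperm markers varied most between libraries. Of 38 listed, 37 were matched, and wild-type sums were 70.1 and 236.5 CPM lacking cadmium and 25.8 and 63.1 CPM under cadmium, and mutant sums 170.5 to 377 CPM in the mutant, with 1 or 2 at 0 in each library. Libraries of a group stood further apart than some libraries of different groups. Over all genes, chi-square per degree of freedom was 55.89 between the wild-type replicates lacking cadmium and 22.01 to 46.81 within the other groups. It was 8.57 between mutant replicate 1 lacking cadmium and mutant cadmium replicate 2. In RNA of whole animals, fewer cells of a type and less RNA per cell cannot be told apart.

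Most of the lysozyme genes lie in small clusters. On chromosome IV of build WBcel235, ilys-3 (2464471 to 2465440) and ilys-2 (2467681 to 2468879) lie on the + strand with 2.24 kb between them, and ilys-1 (2470414 to 2471449) follows 1.53 kb further on. Further along that chromosome lys-4 (11621443 to 11623124) and lys-5 (11624255 to 11625582) lie 1.13 kb apart on the - strand, with lys-6 1.33 kb beyond. On chromosome V, lys-1 (10277827 to 10279127, + strand) and lys-2 (10280310 to 10281470, - strand) are 1.18 kb apart, and lys-7 (3481419 to 3482600, - strand) lies alone. The gene lys-8 is on chromosome II (5586165 to 5587652, + strand) and ilys-5 on chromosome X (6533484 to 6536840, - strand). All 9 are annotated as protein-coding, with 2 to 5 exon blocks and 476 to 1107 bp of exon. Of the 9, lys-8 alone shared exon sequence with another gene in the files, 30 bp with cdc-14 on the other strand. Whether reads were split between lysozyme paralogs was not tested.

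A group of 6 genes made up nearly all lysozyme RNA in every library, while lys-5 and ilys-3 were low in all 8 libraries and ilys-2 in the 6 that were not wild type with cadmium. Averaged over the 8 libraries, ilys-5 stood at 371.9 ± 96.8 RPKM and lys-1 at 323.1 ± 49.4 RPKM (SD, n = 8). Below them came lys-8 at 236.5 ± 32.1, lys-2 at 170.8 ± 30.3, lys-7 at 101.1 ± 42.5 and lys-4 at 57.4 ± 10.8 RPKM. Then followed ilys-2 at 2.81 ± 4.86, lys-5 at 0.428 ± 0.155 and ilys-3 at 0.346 ± 0.458 RPKM. The order lys-1, lys-8, lys-2, lys-7 held in 8 of 8 libraries, and lys-7 was above lys-4 in 7 of 8. The top pair was not separated: ilys-5 was above lys-1 in 5 of 8 libraries. Nor were the lowest members, with ilys-2 above lys-5 in 4 of 8 libraries and lys-5 above ilys-3 in 6 of 8. Of the 15818 genes tested, 1.65% had a higher mean RPKM than ilys-5, 2.54% had a higher one than lys-8 and 14% than lys-4, against 65.5% for ilys-2 and 96.9% for ilys-3.

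The members' summed level was 1041 and 1304 CPM in wild-type libraries lacking cadmium, and 1513 and 1255 CPM under cadmium. In mutant libraries it was 1393 and 1002 CPM lacking cadmium, and 1399.6 and 1208 CPM under cadmium. The ranges of the groups overlapped. Together ilys-5, lys-1 and lys-8 gave 72.4 to 81.4% of it.

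**Figure D1:**
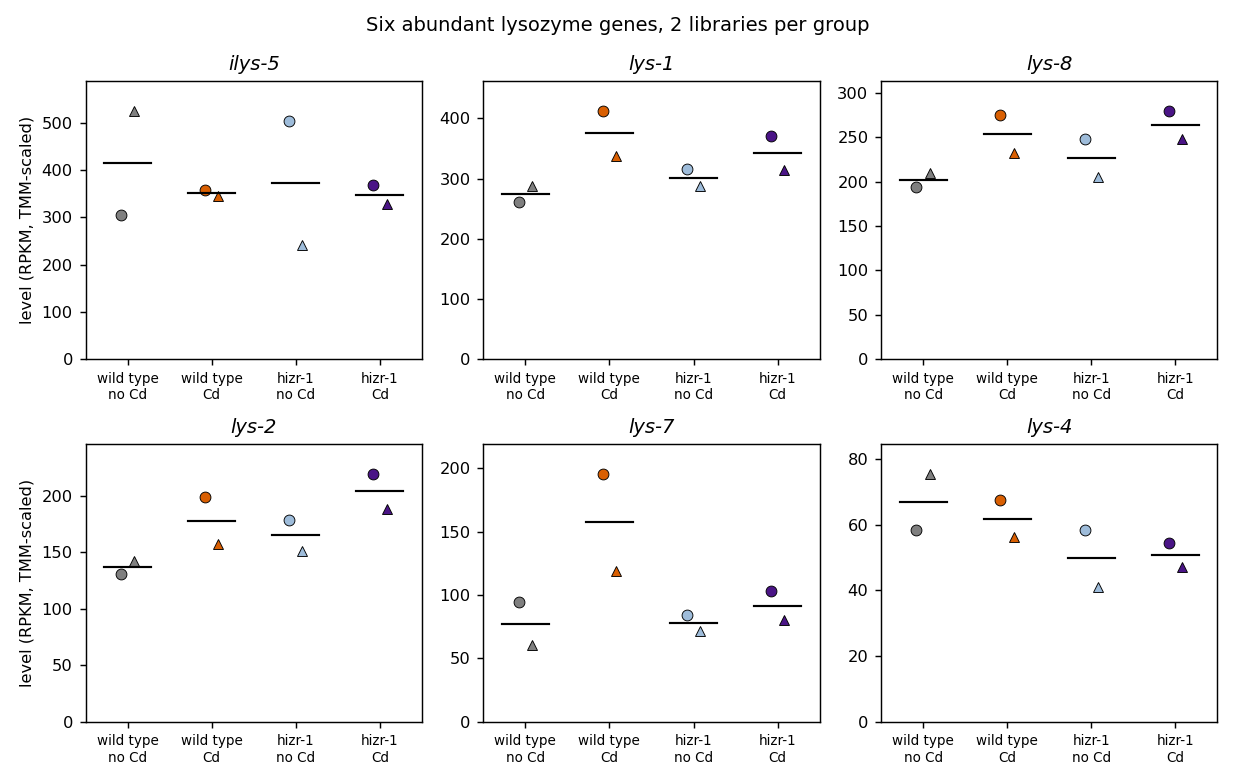
Levels of ilys-5, lys-1, lys-8, lys-2, lys-7 and lys-4 (y axes, RPKM with TMM-scaled library sizes, each from 0) in the 4 groups (x axes). Circles are replicate 1, triangles replicate 2 and lines the mean of both. In lys-7 the wild-type libraries with cadmium sit at 196 and 119 RPKM, above the other 6, and ilys-5 spreads widest between replicates in the groups without cadmium.

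Cadmium raised ilys-2, an invertebrate-type lysozyme gene, from near the floor in the wild type, and in the mutant its counts stayed at 0 to 5. In the wild type the ilys-2 counts of replicates 1 and 2 were 4 and 3 without cadmium, against 155 and 115 with it. The mutant replicates gave 3 and 0 counts lacking cadmium, and 5 and 0 under cadmium. Each wild-type cadmium library was thus far above each of the other 6. As levels, ilys-2 went from 0.142 ± 0.000208 to 5.22 ± 0.102 CPM in the wild type (SD, n = 2). Summed over a group, the exact 95% Poisson interval was 4.63 to 5.89 CPM in the wild type with cadmium. It was 0.0573 to 0.294 CPM in the wild type without cadmium, 0.0141 to 0.2 CPM in the mutant without cadmium and 0.0321 to 0.231 CPM in the mutant with cadmium. These intervals cover counting error only.

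In edgeR's quasi-likelihood test, used for all log2 changes below, cadmium raised ilys-2 in wild-type animals by a log2 change of 5.15 ± 0.562 (SE). That is 35.4-fold, with a 95% interval of 15.2-fold to 82.7-fold (adjusted p = 0.000858). By unadjusted p it was number 15 of 15818 genes. It was the 1 of 8 tested members that passed, while 0.234% of all genes tested rose and 0.0506% fell. Because ilys-2 and ilys-3 passed the filter on low counts through the wild-type cadmium libraries alone, the count over tested members is a description. The change was 5.01 to 5.20 in the 15 alternative analyses and passed in each, with adjusted p from 7.55e-21 to 0.0403. With the sperm marker level as a covariate it was 5.20 (adjusted p = 0.00389). Intestinal markers of the wild type summed to 6320 and 6026 CPM lacking cadmium and to 7020 and 5879 CPM under cadmium.

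Among cultures with cadmium, ilys-2 was lower in the mutant, with a log2 change of -5.68 ± 0.593 against the wild type (adjusted p = 0.000532). The tested members that passed were 1 of 8, while 0.43% of all genes tested were lower and 3.83% higher in the mutant with cadmium. This call was lost with the sperm marker level as a covariate, at -5.74 (adjusted p = 0.0595), and held in the other 14 alternatives, with adjusted p from 1.72e-22 to 0.0301. The sperm covariate itself differed between these groups. Its median log2 CPM was -0.52 and 0.76 in the wild type with cadmium, and 2.97 and 3.03 in the mutant with cadmium. Its part in the lost call was not tested. The fitted size of the ilys-2 change rests on few counts: it was -4.98 without mutant cadmium replicate 2. Without mutant cadmium replicate 1 the remaining mutant library had 0 counts. The floor of 3 counts in that library, 0.1547 CPM, makes ilys-2 at least 33.8-fold lower there than the wild-type mean.

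Cadmium within the mutant gave ilys-2 a log2 change of 0.49 ± 1.13, with a 95% interval of -1.97 to 2.94 (adjusted p = 1). The sign of that value changed when either mutant cadmium replicate 1 or mutant replicate 2 without cadmium was left out, to -3.77 and -0.27, and it was 4.31 without mutant replicate 1 lacking cadmium. The first and the last of these fits left a group with 0 counts. The interaction, which tests how far the cadmium effect of the mutant departs from the wild-type effect, was -4.66 ± 1.58. Its 95% interval was -8.09 to -1.22, and it did not pass (unadjusted p = 0.012 from edgeR's fit across all genes, adjusted p = 1). In the 14 alternatives that tested it, the value ran from -8.92 to -0.84 and adjusted p from 0.184 to 1. Both ends came from fits that left a mutant group with 0 counts, without mutant cadmium replicate 1 and without mutant replicate 1 lacking cadmium. Over all genes 0.114% passed this test.

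**Figure D2:**
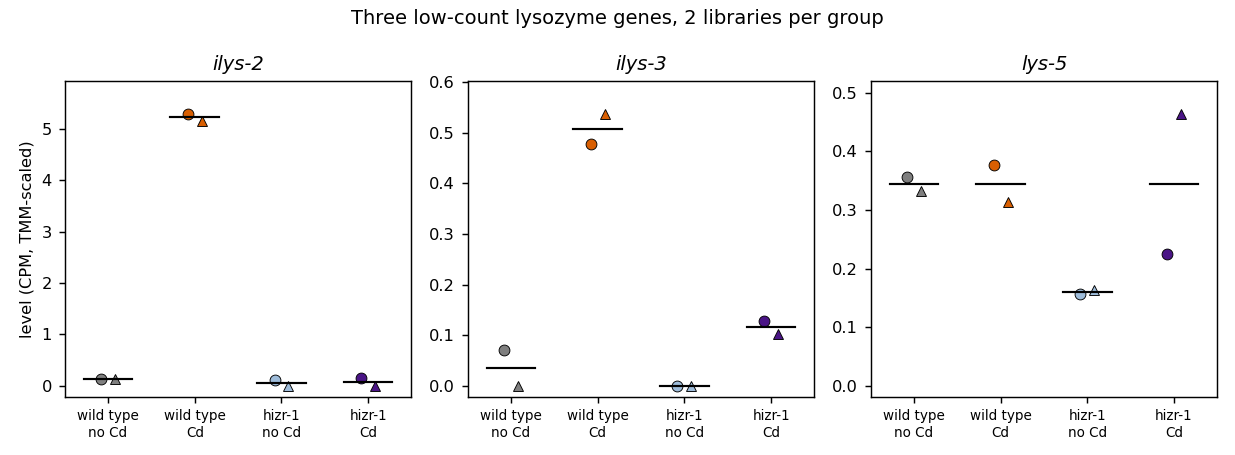
Levels of ilys-2, ilys-3 and lys-5 (y axes, CPM with TMM-scaled library sizes) in the 4 groups (x axes). Circles are replicate 1, triangles replicate 2 and lines the mean. The wild-type cadmium libraries of ilys-2 lie above 5 CPM and the other 6 below 0.2, while all values of ilys-3 and lys-5 are under 0.6 CPM.

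The genes with the profile nearest to that of ilys-2 included metallothionein and cytochrome P450 genes. Likeness was measured as the Euclidean distance between log2 CPM profiles over the 8 libraries, each centred on its mean, on which scale the ilys-2 profile itself is 6.42 long. The nearest were the unnamed gene T08G5.1 at 1.13, the metallothionein gene mtl-1 at 1.75, and the cytochrome P450 genes cyp-14A4 at 2.07, cyp-13A4 at 2.5 and cyp-13A7 at 2.52. Because likeness was taken over these same libraries, the choice largely fixes how the 5 genes differ between groups, and their values are a description without a test. The log2 changes with cadmium in the wild type were 5.84 ± 0.463 for T08G5.1, 5.70 ± 0.188 for mtl-1, 4.05 ± 0.305 for cyp-14A4, 5.26 ± 0.361 for cyp-13A4 and 4.43 ± 0.401 for cyp-13A7. In the mutant they were 0.95, -0.01, -0.21, -0.10 and -0.83, in the same order. The nearest lysozyme gene, its neighbour ilys-3, was at 4.03, with a profile only 3.14 long at 0 to 14 counts a library. At such counts the distance does not show that its pattern differs.

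**Figure D3:**
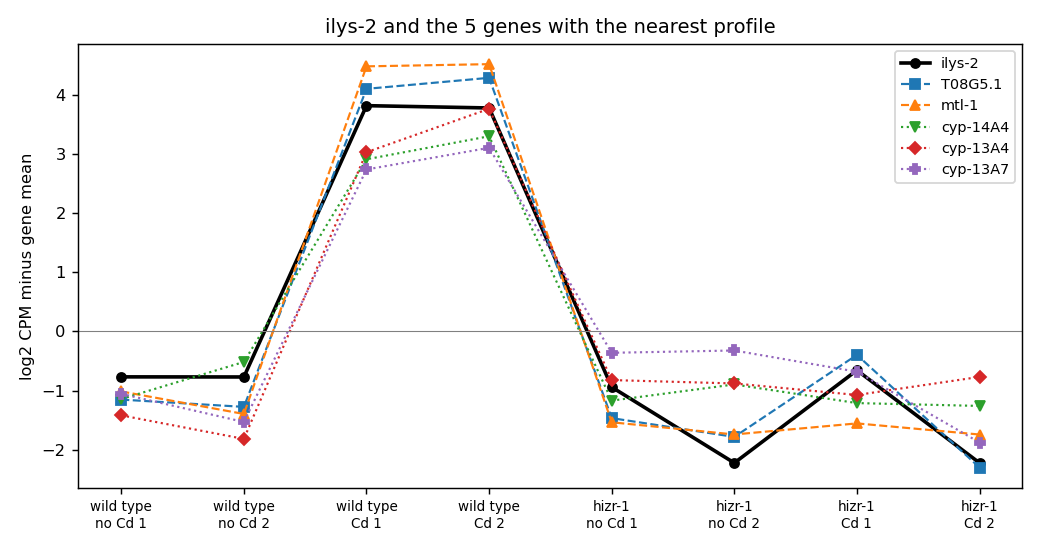
Centred log2 CPM (y axis, log2 CPM minus the gene's mean over the libraries) of ilys-2 and the 5 genes with the nearest profile in each of the 8 libraries (x axis). All 6 genes are above their mean in the wild-type cadmium libraries and below it in the other 6.

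The adjacent gene ilys-3, an invertebrate-type lysozyme known from C. elegans to act in the breakdown of ingested bacteria, was barely detected. Wild-type replicates 1 and 2 gave 2 and 0 ilys-3 counts without cadmium, and 14 and 12 under cadmium. Those of the mutant gave 0 and 0 without cadmium, and 4 and 2 under cadmium. The wild-type cadmium libraries were again above the rest, at a level of 0.508 ± 0.0419 CPM (SD, n = 2). The log2 change with cadmium in the wild type was 3.49 ± 0.856, with a 95% interval of 1.61 to 5.36, and did not pass (adjusted p = 0.205). The fold rests on the 2 counts of one library lacking cadmium: it was 2.74 (adjusted p = 0.63) without wild-type replicate 2, and without replicate 1 the remaining library had 0 counts. The change passed with no filter on low counts (adjusted p = 0.0223) and in the fit of the wild-type libraries alone (adjusted p = 0.00855). Against the mutant with cadmium the log2 change was -2.05 ± 0.696 (adjusted p = 0.178), which passed in the fit of the cadmium libraries alone (adjusted p = 0.0357). In the mutant both groups were near the floor, so neither a fold nor a difference between genotypes is given.

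The third gene of that cluster, ilys-1, had 0 to 2 counts in every library. Of the protein-coding genes within 10 kb of the cluster, the cadherin gene cdh-10 changed by 0.45 ± 0.474 (adjusted p = 0.742) and the hedgehog-related gene grd-16 by 0.63 ± 0.395 (adjusted p = 0.563) with cadmium in the wild type, so neither passed.

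The protist-type gene lys-5 was too low to be tested. Wild-type libraries gave 10 and 7 counts lacking cadmium and 11 and 7 under cadmium, and mutant libraries 4 and 3 lacking cadmium and 7 and 9 under cadmium. Summed over a group, its exact 95% Poisson intervals ran from 0.0641 to 0.328 CPM in the mutant without cadmium to 0.207 to 0.551 CPM in the wild type with cadmium, and they overlapped in all groups. A difference was not detectable at this depth.

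Among the abundant members lys-7, a protist-type lysozyme known for its part in defence against bacterial infection and as a target of DAF-16, had the largest log2 change with cadmium in the wild type. Wild-type replicates 1 and 2 gave 2429 and 1162 counts lacking cadmium, and 5250 and 2434 under cadmium. The mutant replicates gave 1975 and 1194 counts lacking cadmium, and 2940 and 1421 under cadmium. As levels this was 70.8 ± 22.3 and 144 ± 49.7 CPM in the wild type, and 71.2 ± 8.43 and 83.8 ± 14.98 CPM in the mutant (SD, n = 2). The wild-type cadmium libraries, at 179 and 109 CPM, were above those without cadmium, at 86.6 and 55.1 CPM, although replicates of a group differed by a similar amount. The mutant libraries with and without cadmium overlapped.

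The log2 change of lys-7 with cadmium in the wild type was 1.02 ± 0.292, a 2.03-fold change with a 95% interval of 1.27-fold to 3.25-fold, and did not pass (adjusted p = 0.322). It passed in 5 of 15 alternatives: DESeq2 (adjusted p = 0.0179), no filter on low counts (0.00231), replicate number as a block (0.032), the 4 wild-type libraries alone (1.21e-05) and without wild-type replicate 1 lacking cadmium (1.39, adjusted p = 0.0164). With the sperm marker level as a covariate it was 0.46 (adjusted p = 0.555). Without wild-type cadmium replicate 1 it was 0.62 (adjusted p = 1). Pharynx markers, of which all 12 were tested and 11 lay above 0 in this comparison without any passing, summed in the wild type to 798.1 and 511.9 CPM lacking cadmium and to 969.4 and 557.8 CPM under cadmium. As for lys-7, the first replicate was the higher in both groups, and their part in the result was not tested. In the mutant lys-7 changed by 0.24 ± 0.291 with cadmium, with a 95% interval of -0.44 to 0.911 (adjusted p = 1). The difference between genotypes was -0.79 ± 0.411 (adjusted p = 1), and among cultures with cadmium the mutant stood at -0.78 ± 0.291 against the wild type (adjusted p = 0.309). The latter passed in 4 alternatives, with the lowest adjusted p at 0.0193, and was 0.10 (adjusted p = 0.969) with the sperm covariate.

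The abundant genes lys-1, lys-2 and lys-8 had fitted changes with cadmium of at most 1.37-fold in either genotype, with 95% intervals reaching up to 1.75-fold. For lys-1, a gut lysozyme gene known to be induced by Serratia infection, wild-type levels were 289 and 318 CPM lacking cadmium, and 457 and 373 CPM under cadmium. Mutant levels of lys-1 were 349 and 318 CPM lacking cadmium, and 409.8 and 347 CPM under cadmium. For lys-2, wild-type levels were 121 and 132 CPM lacking cadmium and 183 and 145 CPM under cadmium, and in the mutant 165 and 139.7 CPM without and 203 and 174 CPM with cadmium. For lys-8, a gene regulated through DBL-1 signalling, they were 191 and 207 CPM and then 271 and 228 CPM in the wild type, and 244 and 201 CPM and then 275 and 244 CPM in the mutant. In the wild type the cadmium libraries of these 3 genes were above those without cadmium. In the mutant this held for lys-2 only, whose libraries with cadmium began at 174 CPM.

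With cadmium in the wild type the log2 changes were 0.45 ± 0.162 for lys-1, 0.38 ± 0.158 for lys-2 and 0.33 ± 0.156 for lys-8, and none passed (adjusted p = 0.344, 0.393 and 0.443). In the mutant they were 0.18 ± 0.161, 0.31 ± 0.158 and 0.22 ± 0.156, with adjusted p = 1 for each. The differences between genotypes had 95% intervals of -0.767 to 0.224 for lys-1, -0.56 to 0.412 for lys-2 and -0.589 to 0.369 for lys-8, so the fit allowed a difference of up to about these sizes either way. For lys-1 the wild-type change passed with no filter on low counts (0.49, adjusted p = 0.0311).

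The remaining abundant members gave no common direction. The protist-type gene lys-4 stood at 42.3 and 54.7 CPM in wild-type libraries lacking cadmium, and at 48.9 and 40.7 CPM under cadmium. In mutant libraries it stood at 42.3 and 29.7 CPM lacking cadmium, and at 39.3 and 34.2 CPM under cadmium. Its log2 change with cadmium was -0.11 ± 0.202 in the wild type and 0.03 ± 0.203 in the mutant, and the groups overlapped within each genotype. The invertebrate-type gene ilys-5 had 311 and 538 CPM in wild-type libraries lacking cadmium, 515 and 247 CPM in mutant ones lacking cadmium, and 336 to 377 CPM in all 4 cadmium libraries. Replicates without cadmium thus differed far more than the group means, and the log2 change with cadmium was -0.24 ± 0.373 in the wild type and -0.10 ± 0.373 in the mutant. Its sign changed in 2 of 15 alternatives in the wild type and in 1 of 15 in the mutant.

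**Figure D4:**
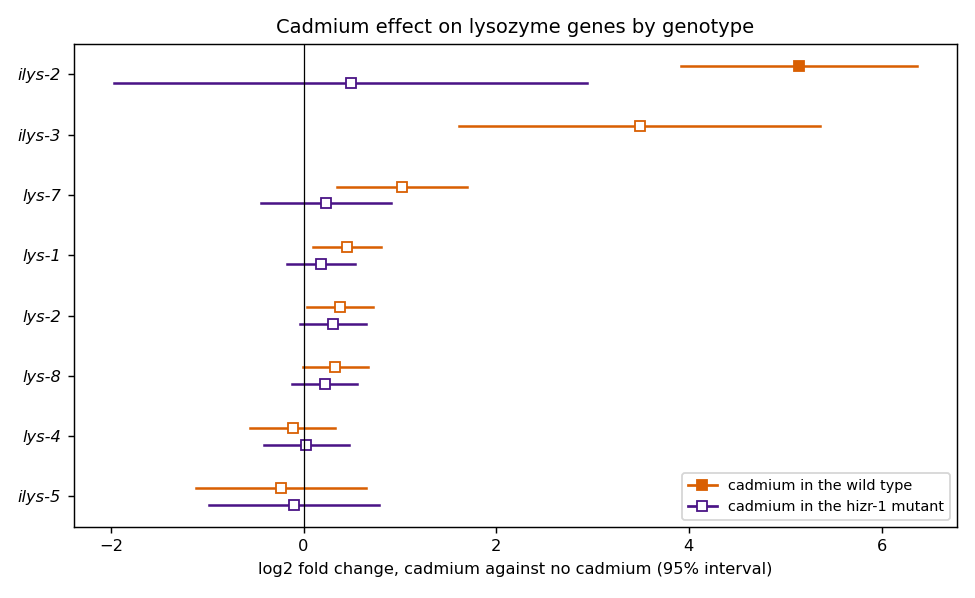
Log2 fold change with cadmium (x axis; squares, with 95% intervals as lines) for the 8 tested lysozyme genes (y axis) in the wild type (orange) and the hizr-1 mutant (purple). The filled square of ilys-2 in the wild type, at 5.15, is the one that passed the adjusted threshold. The mutant value of ilys-3 is left out because it had 0 counts without cadmium.

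Read by overlap between groups, 6 of the 8 tested members had both wild-type cadmium libraries above both without cadmium and none had them below, where 18.3% of all genes tested were higher and 21.3% lower in this sense. The 6 include ilys-2 and ilys-3, which were tested only because they were high there. The median log2 change of the 8 was 0.416, against -0.0114 for all genes. It too includes ilys-2 and ilys-3, so count and median are a description. In the mutant 2 of 8 were higher with cadmium, ilys-3 and lys-2, and 0 lower, against 16.7% and 14.9% of all genes. The higher count is near the share of all genes. For ilys-3 it rests on counts near the floor, 0 and 0 without cadmium and 4 and 2 with it. The median in the mutant was 0.228, against 0.00169 for all genes. It includes the same 2 genes, with ilys-3 at 0 counts without cadmium, and is a description as well. Among cultures with cadmium 4 of 8 were lower in the mutant, ilys-2, ilys-3, lys-4 and lys-7, and 0 higher, against 15.7% and 20.8% of all genes. Here too ilys-2 and ilys-3 were tested only because they were high in the wild type with cadmium, so this count is a description. Among cultures without cadmium 2 of 8 were higher in the mutant, lys-1 and lys-2, and 1 lower, ilys-2. These counts are near the shares of all genes, 19.3% and 19.2%. For ilys-2 the order rests on counts near the floor, 4 and 3 in the wild type and 3 and 0 in the mutant.

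Without cadmium 0 of 8 tested members passed between the mutant and the wild type by edgeR, also at an unadjusted p under 0.05, and DESeq2 and limma-voom called 0. In that comparison DESeq2 gave ilys-3 no adjusted p. By edgeR over all 8 libraries 0.126% of all genes passed. A block of crossed replicate numbers in the libraries without cadmium alone, chosen after seeing the data, called lys-2 and lys-4. That block called many more genes, 982 higher and 723 lower in the mutant. In the fit of all 8 libraries the log2 changes were between 0.01 and 0.27 for lys-1, lys-2, lys-7 and lys-8. They were -1.02 ± 1.06 for ilys-2, -0.15 ± 0.373 for ilys-5 and -0.43 ± 0.203 for lys-4 (adjusted p = 0.482). In the mutant's response to cadmium 0 of 8 passed as well, with 1 of 8, ilys-3, at an unadjusted p under 0.05 and 0 by DESeq2 and limma-voom, while 0.0316% of all genes passed. For the difference between genotypes 0 of 8 passed, with ilys-2 alone at an unadjusted p under 0.05 and 0 by DESeq2 and limma-voom.

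The family has 7 further genes by symbol, lys-3, lys-6, lys-9, lys-10, ilys-1, ilys-4 and ilys-6, all below lys-4 in every library. Of the genes tested, 52.2% had a higher mean RPKM than ilys-4. Of these lys-3, lys-6 and ilys-4 were tested and 0 passed in any of the 5 comparisons, also at an unadjusted p under 0.05 and by DESeq2 and limma-voom. By edgeR at most 3.83% of all genes tested passed in a given direction of a comparison, so this count is near the share of all genes. The gene lys-3, which lies 0.73 kb from lys-2, had 14 and 11 counts in wild-type libraries lacking cadmium and 27 and 22 under cadmium, and 15 and 3, then 32 and 6, in the mutant ones. Its log2 change with cadmium was 0.90 ± 0.568 in the wild type and 0.83 ± 0.618 in the mutant. The most abundant of the 7, ilys-4, was at 6.87 ± 1.16 RPKM without and 6.75 ± 0.0701 RPKM with cadmium in the wild type (SD, n = 2). The genes lys-9, lys-10, ilys-1 and ilys-6 had at most 6 counts in a library.

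Of 20 genes that act upstream of lysozymes in worm immunity, among them the kinase genes pmk-1, sek-1 and nsy-1, the ligand gene dbl-1 with its SMAD genes, and the transcription factor genes daf-16, elt-2 and hlh-30, 0 passed in any of the 5 comparisons by edgeR, DESeq2 or limma-voom. At an unadjusted p under 0.05 by edgeR there was 1 of 20 with cadmium in the wild type, 3 for the mutant against the wild type without cadmium, and 0 in the other 3 comparisons. Their median log2 change with cadmium in the wild type was 0.0235. Of 30 tested genes for other immune effectors 2 rose with cadmium in the wild type and 0 fell, where 0.234% of all genes tested rose and 0.0506% fell. Their median log2 change was 0.411, against -0.0114 for all genes. These were irg-4, an infection response gene, at 1.66 ± 0.163 (adjusted p = 0.000346) and thn-2, a thaumatin-like gene, at 2.05 ± 0.258 (adjusted p = 0.00403). Both also passed the test of the difference between genotypes, at -1.52 ± 0.226 and -2.38 ± 0.363 (adjusted p = 0.0203 and 0.0279). In the mutant the effector list had 0 genes that passed, with 6 at an unadjusted p under 0.05 and 0 by DESeq2 and limma-voom, and a median of 0.41. Without cadmium 0 of 30 passed between the genotypes, with 7 at an unadjusted p under 0.05, 1 by DESeq2 and 0 by limma-voom. At that unadjusted threshold there were 10 of 30 with cadmium in the wild type. There were 8 for the mutant against the wild type with cadmium, and 2 for the difference between genotypes. The share of all genes at this threshold is not given, so unadjusted counts here and above are a description. Among cultures with cadmium 1 of 30 was higher in the mutant and 2 were lower, against 3.83% and 0.43% of all genes tested. The higher one was dod-24 (0.67 ± 0.167, adjusted p = 0.0422), and 1 of 30 is near the share of all genes. The lower ones were irg-4 and thn-2 (-0.90 ± 0.159 and -2.37 ± 0.262, adjusted p = 0.00888 and 0.00111).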

How the data were processed

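RNA of whole animals was extracted with Trizol and a column after ribosomal depletion with Ribo-Zero, per the labels' protocols. Build WBcel235 and the tools STAR 2.0.4b, Subread and featureCounts 1.45 are named in the submitters' processing notes; annotation release, strand setting and handling of multiply matching reads are not given in the sources used here. The deposited Count column holds raw read counts per gene, the deposited CPM column the count scaled to the summed counts of the library, and the deposited RPKM column that CPM per kilobase of exon, per the file headers; recomputing CPM and RPKM from the counts gave the deposited values to within 5.1e-15 of the value. Depth was 17681352 to 29586507 counts.

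Symbols came from a gene name table, which matched 43623 of 46726 identifiers, and biotypes from Ensembl release 115. Of 46364 identifiers in that annotation 61.72% had the span of the files, so coordinates are those of the files. The count test was edgeR 4.0.16 (R 4.3.3): genes passing filterByExpr by group (minimum count 10, minimum total 15; 15818 genes), TMM scaling, robust quasi-likelihood F tests, 4 group means over all 8 libraries, 5 contrasts, 2-sided, with Benjamini-Hochberg adjustment over all genes and a threshold of 0.05. SE is the absolute log2 change over the square root of F, and 95% intervals use 6.89 to 12.3 degrees of freedom. Groups came from the sample labels. No label says whether cultures were independent beyond separate plates, so p-values measure the spread between these pools. Replicates of a group differed beyond sampling noise, with a chi-square over genes of at least 22.01 per degree of freedom, against 8.57 for the closest libraries of different groups. Alternatives were RLE scaling, DESeq2 1.42.0, limma-voom (limma 3.58.1), no filter on low counts, a replicate block, the libraries of a contrast alone, the median log2 CPM of 35 tested sperm genes as a covariate, and leaving out each library. The edgeR script was tested on simulated data. All members and other lysozymes were named by rule, with the 5 genes nearest to each member called in a comparison (prior count 2 for log2 CPM), and every called gene of the lists. Of the lists' symbols ssp-11 had no match. Members and lists were chosen with earlier results of these data known. The genes within 10 kb of ilys-2 and its neighbours were named after the data were seen.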

Additional observations from a re-analysis of the deposited data

How the results depend on the processing

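Over 15 alternatives, the 8 tested members' log2 changes in the 5 comparisons gave 588 values, of which 537 kept direction and side of the threshold, 13 passed where the reported value did not, 1 no longer passed, 36 changed sign without passing either way and 1 became exactly 0 (ilys-3 between genotypes without cadmium, without wild-type replicate 1, where both groups had 0 counts); none changed sign after a call. Members higher with cadmium in the wild type numbered 1, and 2 by DESeq2, 4 with no filter on low counts, 2 with the replicate block, 3 in the 4 libraries of the contrast alone, and 1 to 2 when single libraries were left out (2 without wild-type replicate 1 lacking cadmium). Members lower in the mutant with cadmium numbered 1, and 2 with no filter, 2 with the replicate block, 2 in the 4 libraries alone, 0 with the sperm covariate, and 1 to 2 when single libraries were left out (2 without either wild-type library lacking cadmium). In these comparisons the added calls were lys-7, ilys-3 and lys-1, as given with each gene; the causes were not tested. No label says that a number marks a shared culture, and 2 numbers are too few to settle it from the data. The deviations of same-numbered libraries correlated at 0.42 between the wild-type groups, 0.122 between the cadmium groups, 0.043 between the mutant groups and -0.431 between the groups without cadmium, so the block stays an alternative. Crossing the numbers of the groups without cadmium, chosen after seeing the data, gave 1 member higher, lys-2, and 1 lower, lys-4, in the mutant there (982 and 723 of all genes). Over all genes, higher and lower calls were 37 and 8 for cadmium in the wild type (17 to 180 and 0 to 396 over the alternatives), 4 and 1 in the mutant (0 to 15 and 0 to 6), 14 and 6 for the mutant without cadmium (0 to 511 and 0 to 119), 606 and 68 with cadmium (3 to 1131 and 14 to 159), and 1 and 17 for the interaction (0 to 55 and 4 to 35). In the libraries of the contrast alone ilys-2 and ilys-3 were not tested in the comparisons without a wild-type cadmium library. DESeq2 gave no adjusted p for 2 values of ilys-3, with cadmium in the wild type and between genotypes without cadmium. These are counted among the 537 by direction alone. Depth limits ilys-3 and lys-5, at 0 to 14 counts a library, and ilys-2 in the mutant.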
